A study of Mus musculus with 8 samples.

Results

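Klrd1 and 9 further genes of natural killer (NK) cell receptors and effectors, namely Klrc1, Klrk1, Klre1, Klrg1, Klrb1b, Ncr1, Nkg7, Gzma and Eomes, were followed in CD103+ CD11b+ conventional dendritic cells (cDC) sorted from mouse mesenteric lymph nodes. The probe sets were chosen by name and by level, not by difference, as those whose annotation names exactly 1 gene, selected on the highest mean over all 8 arrays where a gene had several. All 10 genes were found, each with 1 such probe set, among 22180 genes measured. The choice of these genes was made with earlier results of the same arrays known, Klrd1 because it had passed the test, so its values are a description and not independent support. The arrays fall into 4 from transgenic mice, in which the CD11c promoter drives the hBcl-2 transgene, human BCL2, and 4 from wild-type control littermates. All animals were 8-week-old male C57BL6 mice on a control chow diet, and 2 to 3 samples were pooled for each array. The CD11c promoter is active in CD11c+ cells in general, so the transgene is not limited to the sorted subset, and which animals went into which pool is not labelled. The tests therefore measure the spread between these pools, which may be partly technical.

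NK cells are lymphocytes that kill target cells without prior priming. Their activity is set by a balance of inhibitory and activating receptors, many of them C-type lectin-like proteins encoded together in the NK gene complex on mouse chromosome 6. Klrd1 encodes CD94, which has no signalling part of its own and reaches the cell surface paired with an NKG2 chain. With NKG2A, encoded by Klrc1, it forms an inhibitory receptor for the nonclassical MHC molecule Qa-1, and with NKG2C, encoded by Klrc2, an activating one. Dendritic cells are usually a partner of NK cells, to which they present ligands and cytokines, while most of the genes described here mark NK cells themselves.

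Levels are the deposited log2 values, and a difference of 1 is a doubling of signal. They were compared as transgenic minus wild type in limma, with p-values adjusted by Benjamini-Hochberg across the 22180 genes and called below 0.05, and "rose" or "fell" is used only of genes past it. A level under 6 is called dim, as 61.4% of all genes had a mean below it. In pooled material, fewer cells of a type and less RNA per cell cannot be told apart. The median over genes lay between 5.29 and 5.37 on the transgenic arrays and between 5.30 and 5.33 on the wild-type arrays. Transgenic replicate 4 correlated least with its own group, with a mean of 0.970 against 0.976 to 0.979 for the other transgenic arrays and 0.983 to 0.985 for the wild-type arrays. Of the genes that mark cDC, Flt3 (10.27 to 10.95 in transgenic and 10.97 to 11.23 in wild-type arrays) and Itgax, which encodes CD11c (8.80 to 9.42 and 8.92 to 9.12), were bright. The genes of both sorting markers were dim, at 5.17 to 5.86 in transgenic and 5.44 to 5.90 in wild-type arrays for Itgae (CD103) and at 5.38 to 5.72 and 5.38 to 5.76 for Itgam (CD11b).

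The sequences before the starts of 4 of the genes are shown because these genes, Ncr1, Klrb1b, Nkg7 and Gzma, went up and down together from pool to pool, as described further on. Each is the 250 bases before the annotated start, from RefSeq (GRCm38.p6), read 5′ to 3′ on the strand of the gene. Of the 10 genes, 8 were in that table, and Klrd1 and Klrg1 were not among them. Capitals mark matches on either strand to the motif of T-box factors such as Eomes (AGGTGTGA), of RUNX factors (TGTGGTT) or of ETS factors (AGGAAGT). No capitalised stretches overlap. The 4 genes shown were not the only ones to move together. Klrc1, not shown, had Pearson correlations of deviations from the group means of 0.87 with Ncr1, 0.84 with Klrb1b and 0.91 with Nkg7. Its window held no match to any of these motifs, and neither did that of Eomes.
Ncr1 (chr7:4337465-4337714, plus strand): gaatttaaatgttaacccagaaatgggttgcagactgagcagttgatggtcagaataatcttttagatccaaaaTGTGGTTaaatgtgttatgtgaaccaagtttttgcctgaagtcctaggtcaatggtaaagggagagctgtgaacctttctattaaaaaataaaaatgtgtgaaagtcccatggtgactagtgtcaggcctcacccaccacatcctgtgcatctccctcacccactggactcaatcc
Klrb1b (chr6:128826316-128826565, minus strand): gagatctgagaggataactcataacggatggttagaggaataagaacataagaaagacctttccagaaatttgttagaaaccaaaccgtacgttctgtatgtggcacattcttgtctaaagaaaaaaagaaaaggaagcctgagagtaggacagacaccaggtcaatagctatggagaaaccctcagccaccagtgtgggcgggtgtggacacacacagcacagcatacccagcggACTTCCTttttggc
Nkg7 (chr7:43436888-43437137, plus strand): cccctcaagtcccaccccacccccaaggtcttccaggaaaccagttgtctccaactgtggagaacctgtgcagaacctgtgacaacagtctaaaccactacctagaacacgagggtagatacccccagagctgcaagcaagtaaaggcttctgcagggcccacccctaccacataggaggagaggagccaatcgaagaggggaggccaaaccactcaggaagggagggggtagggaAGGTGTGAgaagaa
Gzma (chr13:113100982-113101231, minus strand): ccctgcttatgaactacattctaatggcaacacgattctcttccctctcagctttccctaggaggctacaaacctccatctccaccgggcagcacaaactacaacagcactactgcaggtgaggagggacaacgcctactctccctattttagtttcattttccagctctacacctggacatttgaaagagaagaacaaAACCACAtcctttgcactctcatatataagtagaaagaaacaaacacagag

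The T-box letters were in 1 of the 8 windows (Nkg7, ending 6 bases before the start), against 1.14% of the windows of 27025 genes. The RUNX letters were in 4 (Klre1, Klrk1, Ncr1 and Gzma), against 4.46% of all windows, and the ETS letters in 1 (Klrb1b), against 7.80%. In Ncr1 the RUNX letters end 169 bases before the start, and in Gzma they lie on the other strand and end 44 bases before it. Matching letters are a description of the sequence and do not show that a factor binds there.

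Klrd1 was higher in all 4 transgenic arrays than in any wild-type array. Its level was 10.41, 10.78, 10.37 and 11.18 on transgenic replicates 1 to 4, against 9.33, 9.36, 8.99 and 9.04 on wild-type replicates 1 to 4. The lowest transgenic array lay 1.01 above the highest wild-type array, while the whole spread was 0.82 within the transgenic and 0.36 within the wild-type group. The means were 10.68 ± 0.38 and 9.18 ± 0.19 (SD, n = 4 each), a log2 difference of 1.50 (SE 0.19, 95% interval 1.09 to 1.92) or 2.84-fold, with an adjusted p of 0.00644 by limma. This was the 25th highest difference of the 22180 genes. The gene was bright in both groups, so the fold does not rest on a level near background.

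**Figure D1:**
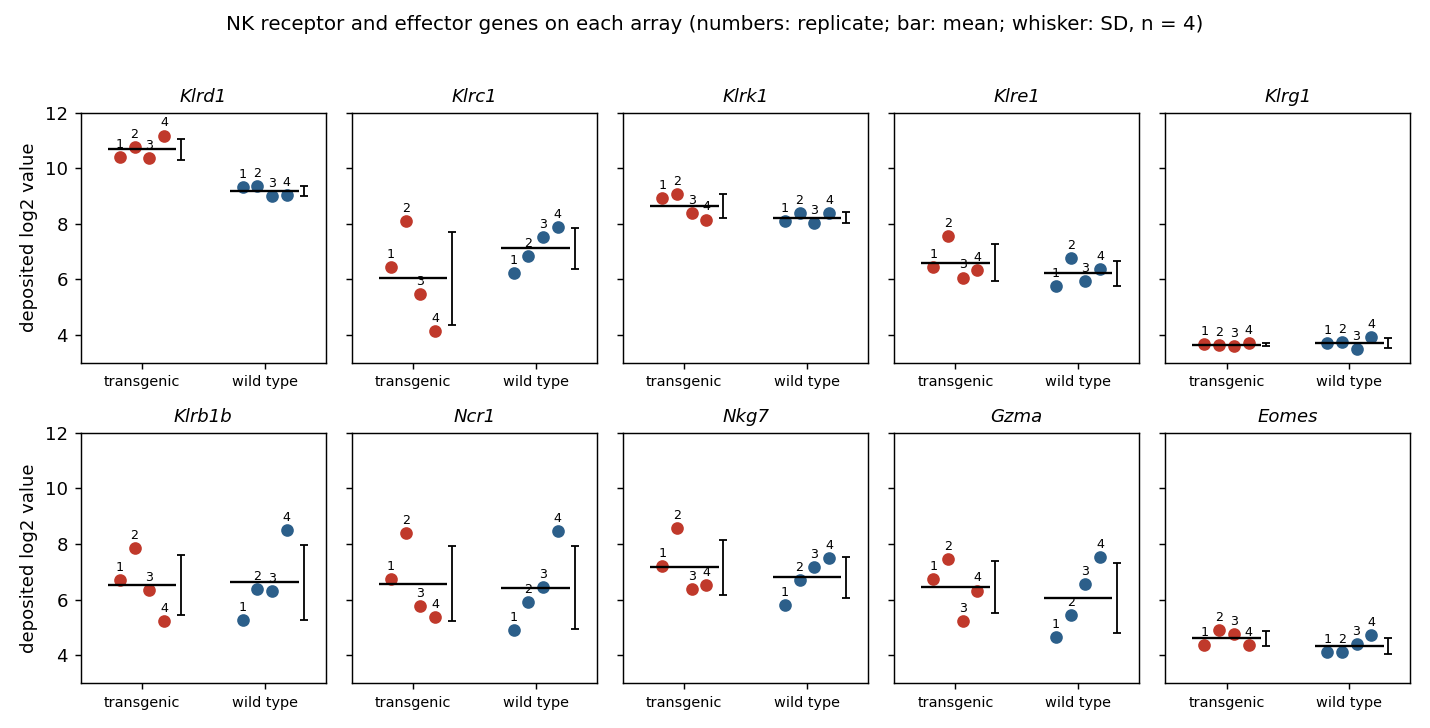
Deposited log2 values of the 10 genes on each of the 4 transgenic (red) and 4 wild-type (blue) arrays, with the replicate number above each point, the mean as a bar and the SD as a whisker. Klrd1 is the only 1 of the 10 whose groups do not overlap, with transgenic arrays at 10.37 to 11.18 and wild-type arrays at 8.99 to 9.36.

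None of the other 9 genes passed. So 1 of the 10 was called, against 1.69% of all genes (1 higher, against 0.839%, and 0 lower, against 0.848%), and the groups of 1 of the 10 did not overlap, against 8.94% of all genes. As Klrd1 was chosen for its difference, nothing is read from either count. By their means, 7 of the 10 were higher and 3 lower in transgenic arrays, and the median difference was 0.31, against -0.0016 over all genes.

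The NKG2 chains that pair with CD94 are encoded by Klrc1, Klrc2 and Klrc3, and none of these passed. Klrc1 had levels of 6.46, 8.10, 5.46 and 4.13 on transgenic replicates 1 to 4, against 6.22, 6.85, 7.53 and 7.87 on wild-type replicates 1 to 4. The highest and the lowest of the 8 values were both transgenic, so the groups overlapped over the whole wild-type range. Its means were 6.04 ± 1.67 and 7.12 ± 0.73 (SD, n = 4 each), a log2 difference of -1.08 (SE 0.70, interval -2.64 to 0.48, adjusted p = 0.592 by limma). On transgenic replicate 4, where Klrd1 had its highest level, Klrc1 had its lowest. Klrc2 was dim, with means of 4.20 and 4.73 (log2 difference -0.54, SE 0.29, adjusted p = 0.488 by limma). Klrc3, which encodes NKG2E, was dim too, with means of 2.72 and 2.81 (log2 difference -0.09, adjusted p = 0.885 by limma). The level of H2-T23, which encodes the Qa-1 ligand of these receptors, was 9.78 to 9.88 in transgenic and 9.82 to 9.98 in wild-type arrays, and it did not pass either.

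Klrk1 encodes NKG2D, an activating receptor for stress-induced ligands that forms a homodimer. It was at 8.93, 9.07, 8.37 and 8.16 on transgenic replicates 1 to 4, against 8.10, 8.39, 8.02 and 8.38 on wild-type replicates 1 to 4. Transgenic replicates 1 and 2 lay above every wild-type array and the other 2 lay within the wild-type range. The log2 difference of 0.41 (SE 0.20, interval -0.04 to 0.86) did not pass (adjusted p = 0.434 by limma). Hcst, the adaptor DAP10 through which NKG2D signals, was at 7.25 to 8.41 in transgenic and 7.30 to 7.90 in wild-type arrays.

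Klre1 encodes a lectin-like chain that pairs with the products of Klri1 or Klri2. Its level was 6.45, 7.57, 6.07 and 6.33 on transgenic replicates 1 to 4, against 5.77, 6.77, 5.93 and 6.39 on wild-type replicates 1 to 4. Only transgenic replicate 2 lay above every wild-type array, and the log2 difference was 0.39 (SE 0.32, adjusted p = 0.689 by limma). The partner chains differed in opposite directions by their means without passing. Klri2 was at 6.52, 7.61, 6.67 and 7.40 on the transgenic arrays, against 4.51, 5.46, 6.62 and 6.72 on the wild-type arrays (log2 difference 1.23, SE 0.46, adjusted p = 0.257 by limma). Klri1 was bright in both groups, with means of 8.58 and 8.90 (log2 difference -0.32, SE 0.14, adjusted p = 0.360).

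Klrb1b and Klrg1 encode inhibitory receptors with ligands outside the MHC. Klrb1b, whose product binds the lectin encoded by Clec2d, was at 6.71, 7.86, 6.34 and 5.23 on transgenic replicates 1 to 4, against 5.27, 6.39, 6.32 and 8.50 on wild-type replicates 1 to 4. The groups overlapped over nearly their whole range, and the log2 difference was -0.08 (SE 0.67, interval -1.56 to 1.39). Clec2d itself was among the bright genes, with means of 11.92 and 12.09 (adjusted p = 0.621 by limma). Klrg1 was dim on all 8 arrays, at 3.61 to 3.71 in transgenic and 3.50 to 3.92 in wild-type arrays. The KLRG1 protein binds cadherins, and 1 of these, N-cadherin (Cdh2), rose in transgenic cDC, as given with the ligands. E-cadherin (Cdh1), another, was dim, at 5.63 to 5.84 in transgenic and 5.29 to 5.87 in wild-type arrays (log2 difference 0.18, SE 0.14, adjusted p = 0.655 by limma), and did not pass.

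In chromosomal order Klrd1 lies between Klre1 and Klrk1. Along the stretch from Clec2h to Klra9, 33 protein-coding genes were measured, and 2 of these passed: Klrd1, and BC035044, a gene with no descriptive symbol between Klrb1b and Clec2i that was singled out after its values were seen. BC035044 fell, with means of 6.72 ± 0.35 and 7.72 ± 0.10 (SD, n = 4 each) and a log2 difference of -1.01 (SE 0.17, adjusted p = 0.0195 by limma). Of the genes between Clec2d and Klre1, Clec12a, an inhibitory lectin of myeloid cells, was at 7.91 ± 0.62 and 6.58 ± 0.36 (SD, n = 4 each), just short of the threshold (log2 difference 1.33, SE 0.29, adjusted p = 0.0503 by limma). Gabarapl1, an autophagy gene next to Klre1, had a log2 difference of 0.59 (SE 0.14, adjusted p = 0.0698). Both were also singled out after their values were seen.

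**Figure D2:**
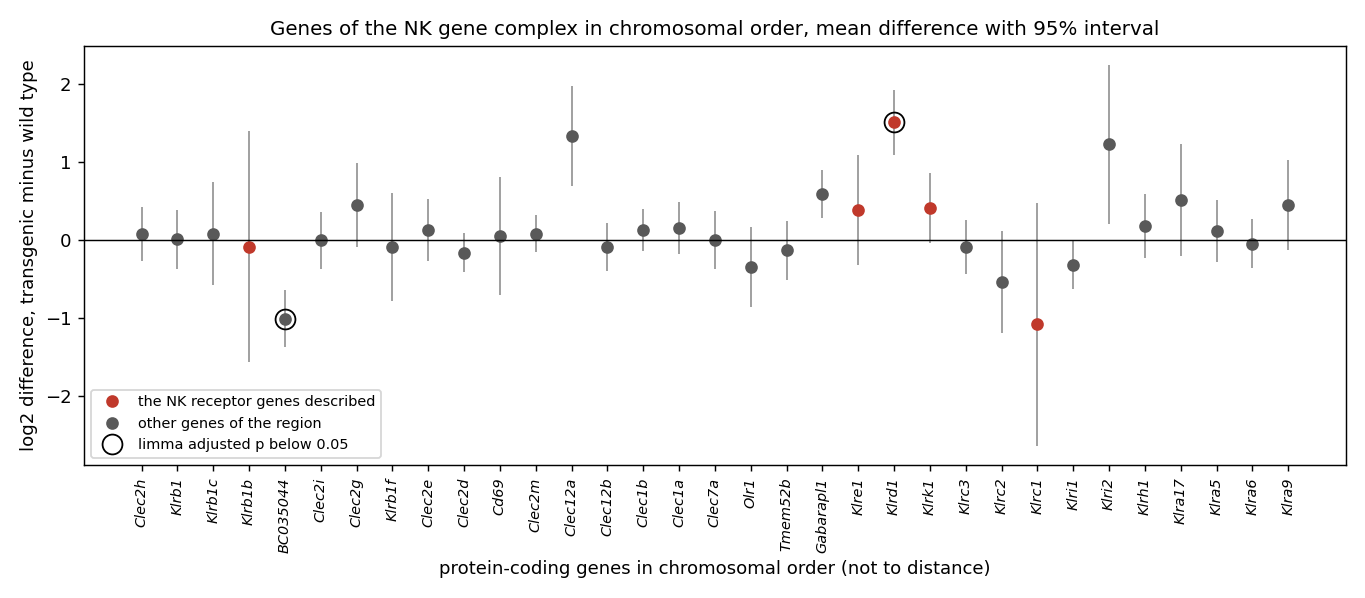
Mean log2 difference, transgenic minus wild type, with its 95% interval from limma for 33 genes of the NK gene complex on chromosome 6 in their order, evenly spaced. Red points are among the 10 genes described, and rings mark an adjusted p below 0.05. Klrd1 (1.50) is ringed, while its neighbours Klre1 (0.39) and Klrk1 (0.41) are not.

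Ncr1, Nkg7, Gzma and Eomes belong to the NK cell and its killing machinery. Ncr1, which encodes the activating receptor NKp46, was at 6.75, 8.41, 5.77 and 5.36 on transgenic replicates 1 to 4, against 4.90, 5.91, 6.46 and 8.47 on wild-type replicates 1 to 4. One array of each group was far above the rest, transgenic replicate 2 and wild-type replicate 4, and the means of 6.57 ± 1.36 and 6.43 ± 1.50 (SD, n = 4 each) differed by less than the spread (log2 difference 0.14, SE 0.78). Nkg7, a membrane protein of cytotoxic granules, was at 7.20, 8.56, 6.37 and 6.51 on the transgenic arrays, against 5.79, 6.72, 7.16 and 7.51 on the wild-type arrays (log2 difference 0.37, SE 0.48). The same 2 arrays were the highest of their groups for Nkg7.

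Gzma, which encodes the granule protease granzyme A, was at 6.75, 7.47, 5.23 and 6.33 on the transgenic arrays, against 4.65, 5.45, 6.56 and 7.55 on the wild-type arrays (log2 difference 0.39, SE 0.61). Eomes, a T-box transcription factor needed for mature NK cells, was dim on all arrays, at 4.36 to 4.92 in transgenic and 4.12 to 4.72 in wild-type arrays (log2 difference 0.26, SE 0.18). The adjusted p of these 4 genes in limma ran from 0.616 to 0.969.

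From pool to pool within a group, most of the NK genes moved together, while Klrd1 did not vary with them. Transgenic replicate 2 was the highest transgenic array for 8 of the 10 genes and wild-type replicate 4 the highest wild-type array for 7. Of the marker lists given further on, those of T cells, B and plasma cells, innate lymphoid cells, cDC1, and monocytes and macrophages also peaked on both. The plasmacytoid DC list and the cDC and cDC2 list peaked on transgenic and wild-type replicates 2. The granulocyte and mast cell list did so on neither array. Being highest on these arrays was therefore not particular to NK genes, but the size of the lead differed between lists. NK cell markers averaged 7.12 on transgenic replicate 2 and 6.75 on wild-type replicate 4. The next highest arrays of these groups were at 6.23 and 6.18. For cDC1 markers these values were 7.81 and 7.593, against 7.41 and 7.588. For monocytes and macrophages they were 7.50 and 6.56, against 7.16 and 6.53. The innate lymphoid cell list includes Ncr1. On transgenic replicate 2, Ncr1 exceeded the average of its 3 fellow arrays by 2.45, Klrc1 by 2.75 and Nkg7 by 1.87, while Klrd1 exceeded it by 0.13. On wild-type replicate 4, Ncr1 exceeded the average of its fellow arrays by 2.71, Klrb1b by 2.51 and Gzma by 1.99, while Klrd1 was lower than that average, with a difference of -0.19. Beyond the 10 genes, Il2rb, the shared receptor chain for interleukins 2 and 15, exceeded the others of its group by 2.27 on the transgenic and 1.92 on the wild-type array, and Xcl1, a chemokine of NK cells and T cells, by 2.65 and 1.67. Klri1 did not show this, at 0.12 above the others on transgenic replicate 2 and with a difference of -0.47 on wild-type replicate 4.

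As a description over the 8 arrays, deviations from the group means of Ncr1 and Klrb1b had a Pearson correlation of 0.97, those of Ncr1 and Nkg7 of 0.93 and those of Ncr1 and Gzma of 0.90. Over the 36 pairs of the 9 genes other than Klrd1 the median was 0.69, with a range of -0.09 to 0.97. Klrg1 gave the low end. Klrd1 against each of the 9 had a median of -0.27, with a range of -0.45 to 0.23. The points share the pools and the normalization. On transgenic replicate 4, which correlated least with its group, Klrd1 deviated by 0.50. Klrc1 deviated there by -1.91, Klrb1b by -1.31 and Ncr1 by -1.21, but Gzma by only -0.12.

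**Figure D3:**
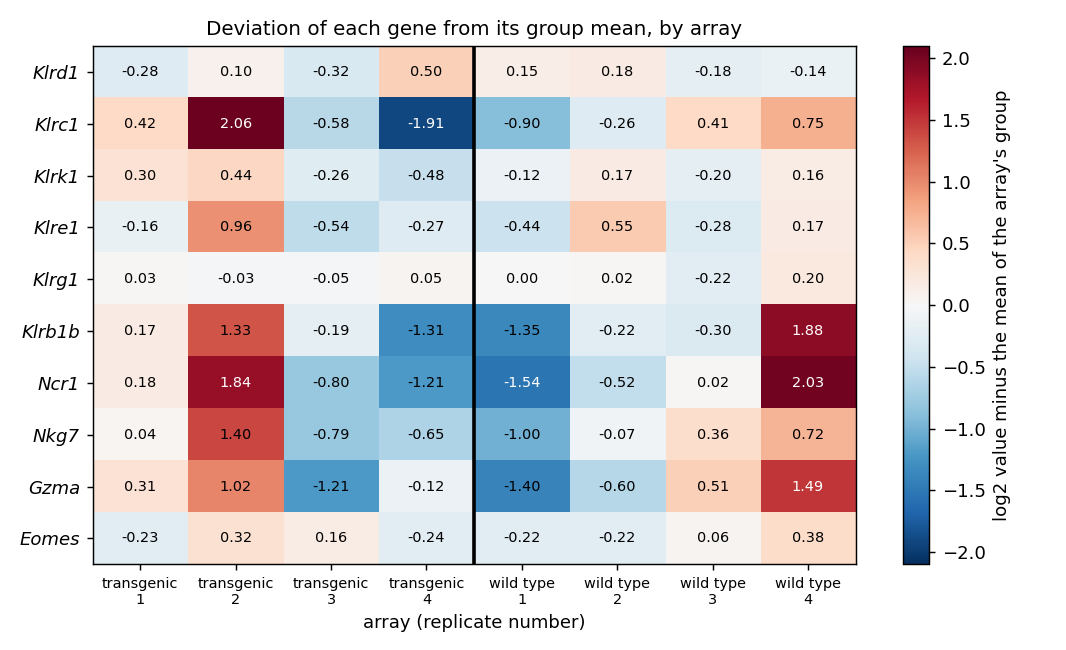
Log2 value of each of the 10 genes on each array minus the mean of the 4 arrays of that group, with transgenic arrays on the left of the black line and wild-type arrays on the right. The columns of transgenic replicate 2 and wild-type replicate 4 are red for most NK genes, while Klrd1 stands at 0.10 and -0.14 there.

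The genes most like Klrd1 over the 8 arrays, among 8559 others with a mean of at least 6, were Fam189b (Pearson correlation 0.99), Zscan30 (0.98), Thap6 (0.98), C130050O18Rik (0.98) and Diablo (0.98). A correlation over both groups mostly carries the difference between them. Fam189b, Zscan30, Thap6 and C130050O18Rik rose in transgenic arrays, with log2 differences of 0.67 to 0.77, and Diablo was at 0.42 (adjusted p = 0.102 by limma). By deviations from the group means the most alike were Mzt1, Snrpc, Zfp729b, Wsb2 and Bhlha9 (correlations of 0.97 to 0.98), and none of these 5 passed the comparison. Like Klrd1, each of them was highest of the transgenic arrays on replicate 4, the array that correlated least with its group. No NK gene of the lists used here was among these 10.

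Across the rest of the NK pathway, 8 of 118 measured genes on 7 lists passed, 5 higher and 3 lower (6.78%, against 1.69% of all genes). Their median difference was 0.02. The lists were chosen with earlier results known, so this share is a description. None of 13 other lectin-like receptors passed, and 11 of these were dim. The Ly49 (Klra) genes among them are near-identical copies, so their probe sets are uncertain, and several share a probe set and were not used here.

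Of 22 other surface receptors of NK cells, 2 rose. Il18r1, a chain of the receptor for interleukin 18, was at 8.42, 7.88, 8.54 and 8.19 on transgenic replicates 1 to 4, against 5.97, 6.01, 6.73 and 6.54 on wild-type replicates 1 to 4 (log2 difference 1.94, SE 0.20, adjusted p = 0.00256 by limma). Lair1, an inhibitory receptor for collagens, had means of 9.28 ± 0.56 and 8.15 ± 0.17 (SD, n = 4 each; log2 difference 1.14, SE 0.24, adjusted p = 0.0469 by limma). Both genes separated the groups on every array. The lowest statistic was that of Cd27, a costimulatory receptor of the TNF family (log2 difference -0.92, SE 0.35), which did not pass.

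Among 15 adaptors and signalling genes, Ptpn6 fell. It encodes SHP-1, the phosphatase that inhibitory NK receptors recruit, and was at 9.50 to 9.87 in transgenic and 10.17 to 10.38 in wild-type arrays (log2 difference -0.55, SE 0.12, adjusted p = 0.0480 by limma). Tyrobp, the adaptor DAP12 of activating receptors, was bright in both groups, with means of 12.50 and 12.47. Sh2d1b1, which encodes the adaptor EAT-2, had the highest statistic without passing (log2 difference 0.73, SE 0.18, adjusted p = 0.0824 by limma), from a dim level in both groups.

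Of 25 other cytotoxic effector genes, 1 passed. Serpinb9, a serpin that inhibits granzyme B, fell, with levels of 8.99 to 9.66 in transgenic and 10.24 to 10.36 in wild-type arrays (log2 difference -0.96, SE 0.16, adjusted p = 0.0181 by limma). Rab27a, which is needed for granule release, had the highest statistic and did not pass (log2 difference 0.86, SE 0.27). Among 13 other transcription factors of NK and innate lymphoid cells, Nfil3, which NK development requires, rose, with levels of 9.83 to 10.17 in transgenic and 8.97 to 9.46 in wild-type arrays (log2 difference 0.80, SE 0.13, adjusted p = 0.0203 by limma). Prdm1, which encodes Blimp-1, had the lowest statistic of that list and did not pass (log2 difference -0.60, SE 0.15, adjusted p = 0.0889 by limma).

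Of 17 measured ligands that dendritic cells can show to NK cells, 15 did not pass, and the median difference of the list was -0.0043. Of the other 2, Cdh2, the N-cadherin ligand of KLRG1, rose, and Pvr, a ligand of the activating receptor DNAM-1 and of the inhibitory receptors TIGIT and CD96, fell. Cdh2 was at 9.06, 10.03, 8.67 and 10.01 on transgenic replicates 1 to 4, against 6.17, 6.92, 6.55 and 7.54 on wild-type replicates 1 to 4 (log2 difference 2.65, SE 0.35, adjusted p = 0.00827 by limma). Pvr was at 9.14, 9.01, 8.75 and 8.60 on the transgenic arrays, against 10.19, 10.12, 10.12 and 10.25 on the wild-type arrays (log2 difference -1.30, SE 0.13, adjusted p = 0.00249 by limma). Neither gene overlapped between the groups.

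Of 13 cytokines that act on NK cells, Il18 rose, with levels of 7.63 to 8.40 in transgenic and 6.68 to 7.11 in wild-type arrays (log2 difference 0.92, SE 0.18, adjusted p = 0.0356 by limma). Il15, the survival factor of NK cells, had the lowest statistic, with means of 9.91 and 10.46 (log2 difference -0.55, SE 0.14), and did not pass (adjusted p = 0.0945). Of the 8 pathway genes that passed, Cdh2, Il18r1 and Pvr also passed with each array left out in turn. Nfil3 and Serpinb9 passed in 4 of these 8 fits, Il18 and Lair1 in 1 each and Ptpn6 in none, with its adjusted p at 0.0608 to 0.126.

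**Figure D4:**
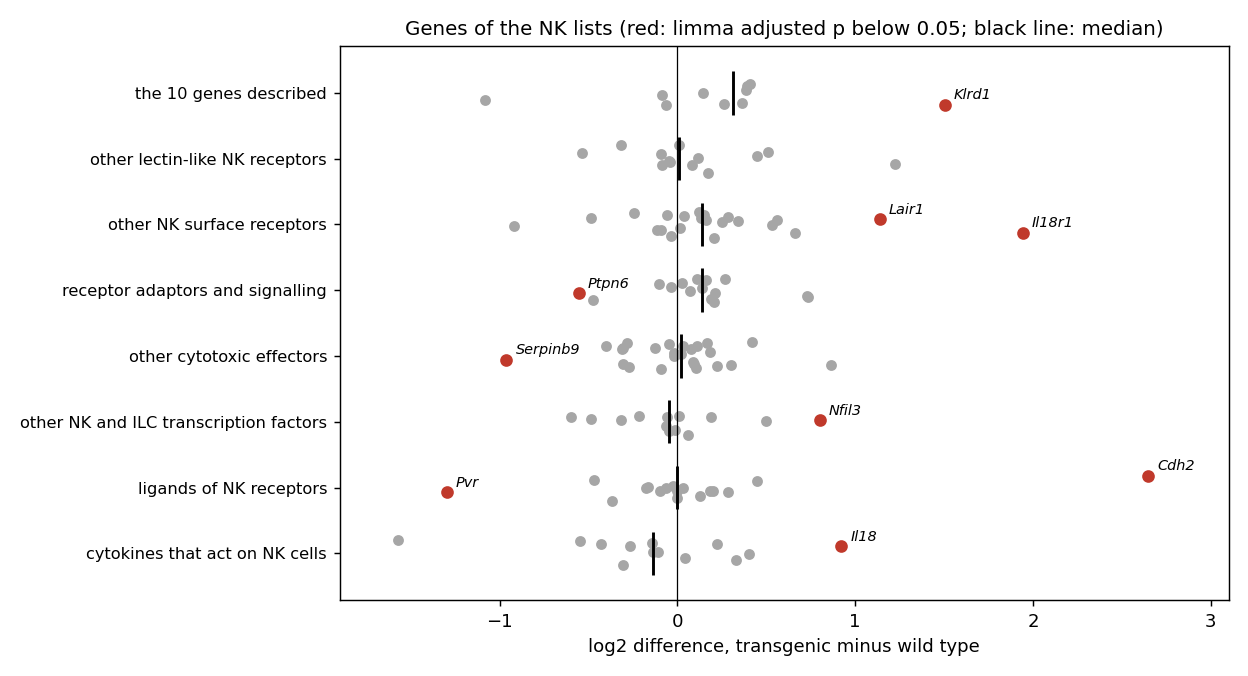
Log2 difference, transgenic minus wild type, of each measured gene on the NK lists, 1 row per list and 1 point per gene, with red for a limma adjusted p below 0.05 and a black line at the list's median. Klrd1 (1.50) stands alone among the 10 genes described, and 8 genes of the other lists passed.

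Marker lists of NK cells and of other cell types were set beside these values. The mean level of 10 NK cell markers was 5.76 to 7.12 in transgenic and 5.47 to 6.75 in wild-type arrays, and 0 of the 10 passed, nor did any at an unadjusted p below 0.05 in limma. The highest were transgenic replicate 2 (7.12) and wild-type replicate 4 (6.75), and the groups overlapped on these markers. They did not on Klrd1, which was chosen for its difference, so nothing is read from this contrast. The part of NK cells in the difference of Klrd1 was not tested. On this list, Ncr1, Klrk1, Klre1, Nkg7, Gzma and Eomes are also among the genes described above. Their peak and their lack of a call repeat values already given and are not a second observation. Of these markers 4 were dim, and the probe set that names only Klrb1c, the gene of NK1.1, was at 4.65 to 5.89 in transgenic and 4.63 to 5.64 in wild-type arrays. Without transgenic replicate 2 and wild-type replicate 4, an alternative chosen after seeing the data, the log2 difference of Klrd1 was 1.43, with an adjusted p of 0.0573 in limma with 3 arrays a group.

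Markers of T cells averaged 5.18 to 5.34 in transgenic and 5.11 to 5.57 in wild-type arrays, with Cd3e, a defining gene of T cells, dim on all arrays (5.04 to 5.82 and 5.62 to 5.80). Of 12 measured, Cd4 rose. On transgenic replicate 2 other lists were high too: plasmacytoid DC markers averaged 7.94 there and 6.85 to 7.35 on the other transgenic arrays, against 6.59 to 7.24 in wild-type arrays, and monocyte and macrophage markers 7.50 there and 6.60 to 7.16, against 6.24 to 6.56. Of the 9 plasmacytoid markers 1 rose, and of the 11 monocyte and macrophage markers 2 rose. On the monocyte and macrophage list the groups only just failed to overlap, at 6.60 for the lowest transgenic and 6.56 for the highest wild-type array. For Klrd1 these values were 10.37 and 9.36. Of the 11 genes of that list, 9 were higher by mean, with a median difference of 0.53, and 6 had an unadjusted p below 0.05 in limma. Ly6c2, its defining marker, was at 5.81 to 10.38 in transgenic and 5.46 to 6.83 in wild-type arrays (adjusted p = 0.346 by limma). The part of these cells in the difference of Klrd1 was not tested. The cDC1 markers averaged 6.77 to 7.81 in transgenic and 7.09 to 7.59 in wild-type arrays, B cell and plasma cell markers 5.75 to 6.14 and 5.65 to 6.02, and granulocyte and mast cell markers, all dim, 4.24 to 4.49 and 4.28 to 4.44, with 0 past the threshold in each. Markers of innate lymphoid cells averaged 6.62 to 6.98 and 6.50 to 7.11, of which Kit rose. The list of cDC and cDC2 markers averaged 8.59 to 9.10 in transgenic and 9.04 to 9.18 in wild-type arrays, and 1 of its 13 measured genes, Esam, fell. By mean, 5 of the 13 were higher in transgenic arrays, with a median difference of -0.23. The groups did not overlap for 4 of them, against 8.94% of all genes. An unadjusted p below 0.05 in limma was found for 5, against 2919 of all 22180 genes.

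**Figure D5:**
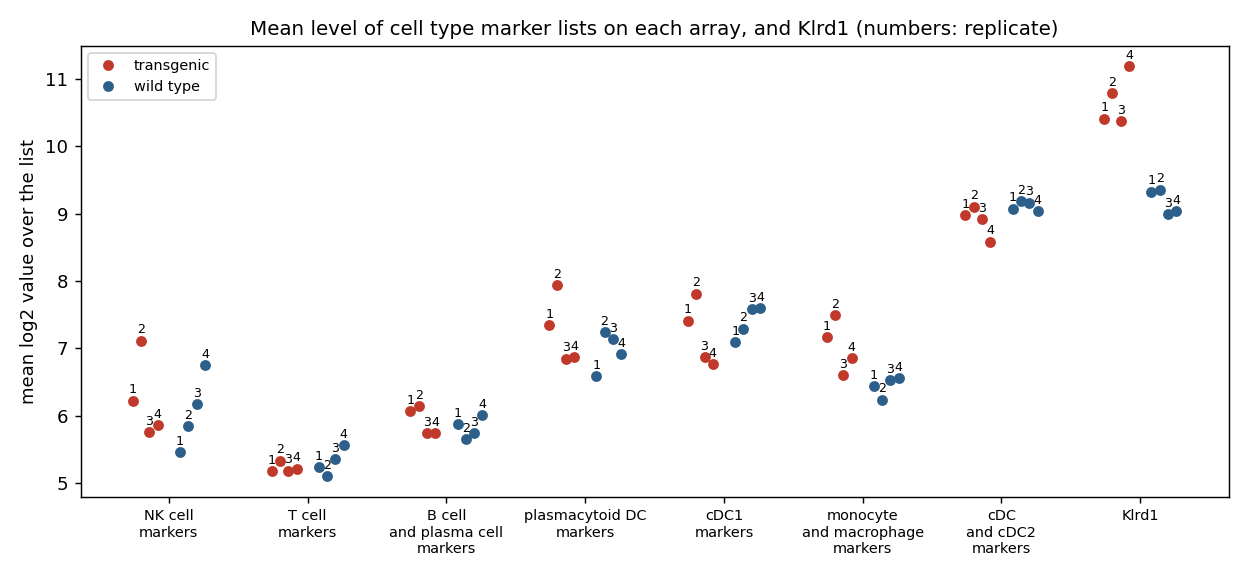
Mean log2 value of each cell type marker list on each transgenic (red) and wild-type (blue) array, with replicate numbers, and the level of Klrd1 at the right. NK cell markers overlap between the groups (5.76 to 7.12 and 5.47 to 6.75), while Klrd1, chosen for its difference, does not. The list of NK cell markers includes Ncr1, Klrk1, Klre1, Nkg7, Gzma and Eomes, which are also among the genes described.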

How the data were processed

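Expression was measured in 8 pools of sorted CD103+ CD11b+ cDC, 4 transgenic and 4 wild type by the genotype in the labels. Per the labels' protocols, 2.5 ng of total RNA was amplified with a whole-transcriptome kit and labelled with biotin. The authors deposited log2 values, and the submitters' processing notes name RMA and Partek without versions. RMA makes the arrays' distributions more alike, so a shift of all genes would not be seen. The deposited distributions were not identical. Over probe sets, transgenic replicate 4 had a median of 5.15 and an SD of 2.00. The other arrays had medians of 5.04 to 5.10 and SDs of 2.07 to 2.11. The genome build of the probes is not given in the sources used here. Arrays have no read depth, and their number limits the precision.

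Of 34390 probe sets, 23521 name 1 gene, 1814 several and 9055 none, and the first kind gave 22180 genes. Symbols were checked by gene number against RefSeq (GRCm38.p6), where 23328 sets matched and 0 symbols changed. All genes were fitted with limma 3.58.1 (lmFit, eBayes; R 4.3.3), tested on simulated data. Alternatives were the prior variance, a filter on dim genes, normalization, the mean over probe sets, array weights, a replicate block and leaving out arrays. The block was a term of the model, and statmod 1.5.0 was also loaded. The genes and lists were chosen with earlier results of these data known. The text names the 10 genes, pathway genes past the threshold with the highest and lowest statistic of each list, the 10 genes most like Klrd1 and markers. Partner chains, ligands, adaptors and further genes of NK cells were named after their values were seen.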

Additional observations from a re-analysis of the deposited data

Results flagged for a closer look

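In 7 of 110 groups of 4 arrays screened, 1 array stood apart from the other 3 by Dixon's criterion, which chance gives in about 5% of groups. Klrb1c was at 5.89 on transgenic replicate 2 and at 5.64 on wild-type replicate 4, the arrays on which Ncr1, Klrc1, Klrb1b, Nkg7, Gzma and Eomes were also the highest of their groups. Klri1 was at 8.54 on wild-type replicate 4, below the other wild-type arrays. On transgenic replicate 4, Cd27 (4.77) and Itgax (8.80) were low and Il18 (8.40) and Zscan30 (6.64) were high. None of the 10 genes described was among the 7.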

How the results depend on the processing

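The log2 difference of Klrd1 stayed between 1.34 and 1.61 over 17 alternatives and passed in 16, with an adjusted p of 0.00619 to 0.0251 in limma with each array left out in turn. It did not pass without both transgenic replicate 2 and wild-type replicate 4 (1.43, adjusted p = 0.0573), where 0 of the 10 genes passed, 3 of the pathway genes and 73 of all genes, with fewer arrays in the fit. None of the other 9 genes passed under any of the alternatives run. Differences near 0 changed sign: Klrb1b was at 0.19 with array weights, and without both named arrays it was at 0.10 and Klrg1 at 0.015. With each array left out in turn, Klrb1b ran from -0.54 to 0.54, Ncr1 from -0.47 to 0.82, Nkg7 from -0.10 to 0.63, Gzma from -0.073 to 0.89 and Klrg1 from -0.14 to 0.0033. Klrc1 (-1.77 to -0.44), Klre1 (0.066 to 0.57), Klrk1 (0.26 to 0.57) and Eomes (0.15 to 0.39) kept their sign, but moved by over 1.5 times. Of the pathway genes, 8 passed in the reported fit and 3 to 8 with 1 array left out (3 each without wild-type replicates 2, 3 or 4, 4 without wild-type replicate 1 or transgenic replicate 2, and 5 without transgenic replicates 1 or 3). Over all genes 374 passed, 526 when genes with a mean under 6 were left out, and 106 to 379 with 1 array left out. Deviations of arrays with the same replicate number had correlations of -0.03 to 0.08. These values gave no sign that the numbers pair the pools, but cannot show that they do not. With a replicate block, 187 genes, 5 pathway genes and Klrd1 (adjusted p = 0.0260) passed. Dim genes such as Klrg1 and Eomes lie where the signal is hard to tell from background.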
